A study of Mus musculus with 60 samples.

Results

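Circular RNAs (circRNAs) that the authors listed in mouse brain and in no other organ, and that span less than 10 kb of the genome, are described here. They were chosen by where the authors' tables list them, which rests on their measured level in each organ, and by span. Each is an entry of the brain table whose exact name (chromosome, start and end, build GRCm39 per the submitters' processing notes) is in none of the heart, kidney, liver and spleen tables. Its span, end minus start plus 1, is below 10000 bases. There were 680 of them among 1856 circRNAs in brain (36.6%) and among 2799 different circRNAs over all 5 tables. They made up 61.8% of the 1101 circRNAs listed in brain only. Each table had been filtered by the authors for low expression by itself, so an organ that does not list a circRNA may still hold it at a low level.

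The series compared Ftsj1-deficient mice (Ftsj1_DF) with wild-type mice (WT) in brain, heart, kidney, liver and spleen. All 6 mice were male and 4 months old, 3 of each genotype, and had no special treatment. The labels name 4 mice as brothers, 2 of them wild-type, and the remaining 2 mice as brothers, 1 of them wild-type. The sources used here do not give the allele, the strain or the way Ftsj1 was disrupted. Whole brain tissue was taken, and its RNA was freed of ribosomal RNA, polyadenylated and treated with RNase R, which digests linear RNA from its free end, before sequencing. Each brain library was sequenced in 2 batches, the second added for the low read number of the other, so the 6 mice gave 12 brain samples.

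A circRNA forms when the spliceosome joins the end of an exon to the start of the same or an earlier exon of the same transcript, a reaction called back-splicing. The closed ring has no free ends, so exonucleases degrade it slowly, and circRNAs are known to collect in long-lived, non-dividing cells. Brain is known as the mammalian organ with the richest set of circRNAs, many of them from genes that act at synapses. Ftsj1 lies on the X chromosome and encodes a 2'-O-methyltransferase that modifies the anticodon loop of certain tRNAs, and loss of the human gene is a cause of X-linked intellectual disability.

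The values come from the authors' deposited tables of their own comparison, and values per library were not analysed here. The level of a circRNA is its mean normalized count over the brain libraries of both genotypes together. The genotype difference is given as log2 fold change and standard error (SE), from which 95% intervals were computed with the normal quantile. The sources used here do not say which genotype is the numerator, so signs are those of the deposited tables and no direction between the genotypes is read from them. Total reads per library are unknown, and in whole tissue fewer cells of a type and less RNA per cell cannot be told apart. The tables hold no gene names, and no annotation of their build was used, so circRNAs are named by position only.

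Most of the brain-only circRNAs under 10 kb were rare, and a few were among the most abundant of the brain. Their mean normalized count had a median of 2.84 in the authors' deposited table (quartiles 1.72 and 5.09, range 0.455 to 214.8), against 3.87 over the whole brain table. The 489 brain circRNAs of the same span that another organ listed too had a median of 6.25 in the authors' deposited table. Brain-only circRNAs of 10 kb or more had 2.85, so the short and the long brain-only circRNAs had like levels in the authors' deposited table. Being listed in an organ depends on the level, so these medians describe the rule and are no independent result. A mean of at least 10 was reached by 65 of the 680 (9.56%), against 20.1% of the brain table, and a mean below 1 was found for 43. Together they held 22.7% of the level summed over the authors' deposited brain table.

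The leading circRNA was chr5:117638778-117643704, 4927 bases in span, at a mean normalized count of 214.8, rank 4 among all entries of the authors' deposited brain table. The next was chr10:89905330-89913004 at 139.5 and rank 8 in the authors' deposited table. These 2 are the only ones above 100, and they alone held 10.1% of the summed level of the 680. The third, chr7:141541488-141546037, stood at 43.2 in the authors' deposited table, well below both leaders. It was followed in the authors' deposited table by chr1:25165722-25170482 at 39.4. Then came 3 circRNAs at the same level of 35.9 in the authors' deposited table: chr9:21947608-21948156, chr14:45481612-45483973 and chr16:94633158-94634078. The other 3 of the leading 10 were chr7:141541488-141542173 at 32.3, chr7:113918688-113920486 at 31.9 and chr16:30972524-30979206 at 31.8 in the authors' deposited table. The leading 10 held 18.3% of the summed level and the lower 340 held 16.8%. They included 2 of the 10 most abundant brain circRNAs, 4 of the 50 most abundant and 16 of the 100 most abundant.

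**Figure D1:**
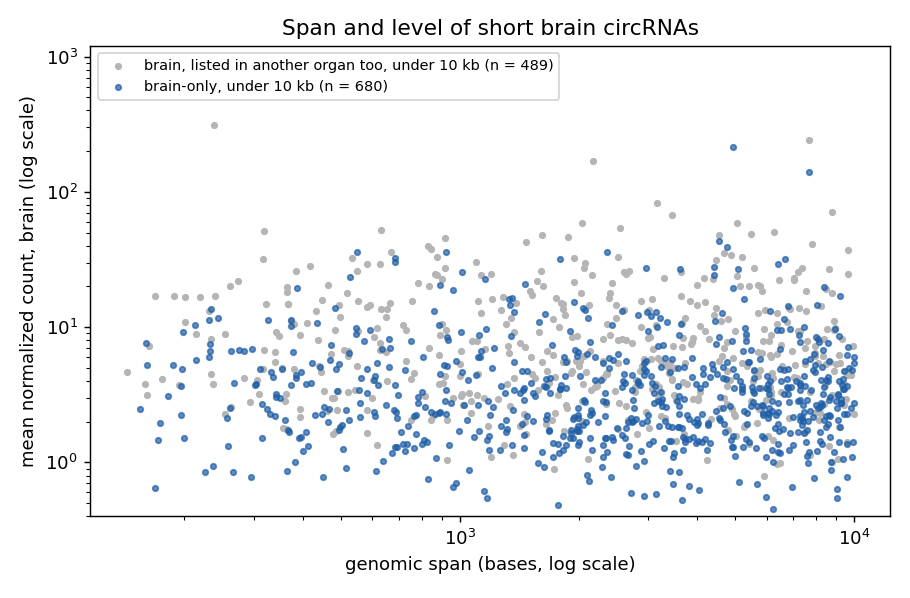
Mean normalized count in brain (y axis, log scale) against genomic span in bases (x axis, log scale) for the 680 brain-only circRNAs under 10 kb (blue) and the 489 brain circRNAs under 10 kb that another organ listed too (grey), 1 point per circRNA. The blue points reach down to 0.455 and lie mostly below 10, and 2 of them, at 214.8 and 139.5, stand above all other blue points.

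Level did not follow span. Span counts introns too and is longer than the ring wherever these are spliced out. The median span was 2750 bases, with quartiles at 1005 and 5756. The shortest was chr15:59327162-59327315 at 154 bases, followed by chr7:132627442-132627601 at 160 and chr6:119671532-119671692 at 161, and their levels were 2.50, 7.62 and 5.27 in the authors' deposited table. Of the 680, 85 spanned up to 500 bases, 85 spanned 501 to 1000, 107 up to 2000, 201 up to 5000 and 202 more than that. Their median levels in the authors' deposited table were 3.74, 2.76, 2.85, 2.63 and 2.87 from the shortest class to the longest. Across the 680 circRNAs, which share the same libraries, Spearman's rho of span and level was -0.04. Both leaders lay in the classes above 2000 bases. Just inside the limit of 10 kb stood chr6:37064564-37074561 (9998 bases, mean 5.43), chr14:38119187-38129173 (9987 bases, mean 2.75) and chr6:5913316-5923290 (9975 bases, mean 6.06) in the authors' deposited table. Just outside it stood chr11:62042696-62052736 (10041 bases, mean 7.22), chr4:57638010-57648120 (10111 bases, mean 1.71) and chr6:17844908-17855027 (10120 bases, mean 3.08) in the authors' deposited table.

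These circRNAs were mostly solitary, as were the other short circRNAs of the brain. Another brain circRNA overlapped 22.2% of them, against 21.7% of brain circRNAs under 10 kb listed elsewhere too and 35.2% of the brain table. Joining overlapping circRNAs of all 5 tables into loci placed the 680 in 642 loci, of which 608 held 1 of them, 30 held 2 and 4 held 3. No circRNA of any table overlapped 515 of them (75.7%). For this count, for the loci and for the margins below, no like share over the brain table was computed, so none is read as particular to these circRNAs. No circRNA of another organ overlapped 619 (91.0%), so most lay where the other tables list no ring at all. The rule itself favours such places, so this share and its contrast with circRNAs listed elsewhere are no independent result. With a margin of 10 kb on each side the number was 606, and with 50 kb it was 558. The same share for circRNAs under 10 kb listed in 1 organ only was 88.3% in liver, 85.7% in spleen, 84.3% in kidney and 81.3% in heart. Those organs are set against the large brain table, and brain against smaller ones, so these shares are not shown to differ by organ. Among brain-only circRNAs of 10 kb or more, which cover more sequence, 22.6% overlapped a circRNA of another organ, against 8.97% of the short ones. A differently named circRNA of another organ overlapped 23.6% of the brain table and 24.9% of brain circRNAs under 10 kb listed elsewhere too. By chromosome, 5 held the most, 68 (10%, against 7.76% of the brain table), then chromosome 1 with 62 (9.12%, against 8.03%). Chromosome 13 held 16 (2.35%, against 3.88%) and chromosome X held 13 (1.91%, against 1.29%). Short brain-only circRNAs were 22.2% of the brain circRNAs on chromosome 13 and 54.2% of those on X, against 36.6% of the whole brain table. These differences were not tested.

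Of the 4 loci that held 3 of these circRNAs, the 3 with the highest summed level of them are described first, and no other table listed anything there. On chromosome 7, 3 rings lay within 4550 bases. The longest, chr7:141541488-141546037 (43.2), shared its start with chr7:141541488-141542173 (32.3) and its end with chr7:141544085-141546037 (15.2), all from the authors' deposited table. The shorter 2 do not touch each other and both lie within the long one. On chromosome 5, chr5:113688484-113696524 (14.5) and chr5:113688484-113696460 (4.63) shared a start and ended 64 bases apart in the authors' deposited table. The third ring there, chr5:113696410-113699146 (4.41 in the authors' deposited table), began 115 bases before the end of the first, so these 115 bases lie within both genomic spans. On chromosome 14, chr14:121829806-121835168 (2.32), chr14:121829806-121835165 (1.93) and chr14:121831748-121835162 (4.63) ended in steps of 3 bases in the authors' deposited table. A short common stretch of this kind was the usual form of partial overlap: 14 of the 680 overlapped a brain circRNA without nesting, in 15 overlaps of 51 to 4368 bases (median 121), and 11 of the 15 were of up to 300 bases.

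**Figure D2:**
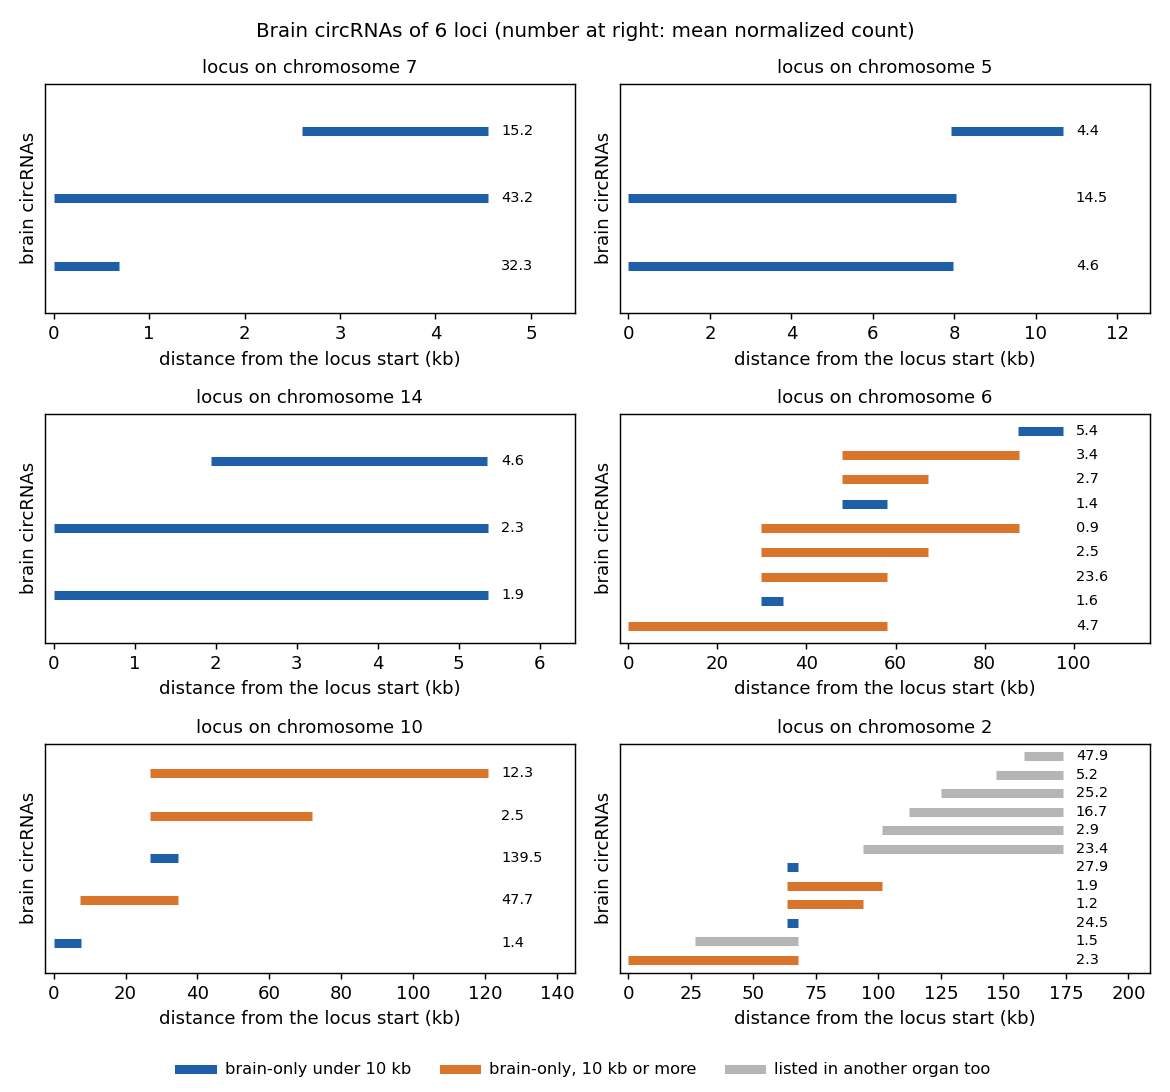
Brain circRNAs of 6 loci, each bar running from the start to the end of a circRNA, in kb from the start of the locus (x axis), with the mean normalized count at the right. Blue marks brain-only circRNAs under 10 kb, orange brain-only circRNAs of 10 kb or more and grey circRNAs listed in another organ too. In the chromosome 10 locus the short ring at 139.5 stands above the 4 others, which run from 1.4 to 47.7. In the chromosome 2 locus the short rings, at 24.5 and 27.9, are by the rule listed in brain only. There, 7 neighbours are listed in another organ too.

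The locus of the second most abundant circRNA showed how far rings with a common end could differ. Besides chr10:89905330-89913004 at 139.5, the authors' deposited table listed chr10:89885678-89913004, which has the same end, at 47.7. Rings with the same start and farther ends, at 89999166 and 89950309, had 12.3 and 2.55 in the authors' deposited table. The fifth, chr10:89878408-89885974, also under 10 kb, had 1.41 and overlapped the ring at 47.7 by 297 bases. None of the 5 was listed in another organ. The fourth locus with 3 of the short rings, on chromosome 6, held 9 brain-only rings in all, and there a long ring led: chr6:37006698-37034963 had 23.6, and the 3 short rings had between 1.41 and 5.43 in the authors' deposited table.

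A few pairs differed by a step of 3 bases. Among the 680 there were 4 pairs that shared one end and differed by up to 20 bases at the other, and in 3 of the 4 the distance was exactly 3 bases, each at the end coordinate. The most abundant such pair was chr9:21947608-21948156 at 35.9 and chr9:21947608-21948153 at 8.92, a ratio of 4.03 in the authors' deposited table. The pair on chromosome 14 given above had 2.32 and 1.93, and chr1:132936875-132940449 and chr1:132936875-132940452 had 3.70 and 1.83 in the authors' deposited table. The remaining pair lay on chromosome 2, with starts 13 bases apart: chr2:139789090-139793499 had 27.9 and chr2:139789077-139793499 had 24.5 in the authors' deposited table, so both starts were used at like levels. Exact names also separated 2 circRNAs from near-identical entries of other organs. The ring chr7:99737271-99742691 (1.41) ended 3 bases beyond an entry of brain and spleen, and chr13:92117066-92120407 (2.58) ended 3 bases beyond an entry of heart, in the authors' deposited tables.

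It was next asked how the short brain-only rings stood beside rings that share a splice end with them. In all, 154 of the 680 (22.6%) shared a start or an end with another listed circRNA, and 141 (20.7%) did so with one in the brain table. That is near the 20.7% of brain circRNAs under 10 kb that another organ listed too, and below the 49.2% of brain-only circRNAs of 10 kb or more. For 44 of them the partner in brain was also listed in another organ. The brain-only ring was the lower of the 2 in 37 of these 44 and the higher in 7, and the median ratio of its level to that of its most abundant partner was 0.317. Listing depends on level, so the rule itself favours a more abundant partner there. Against their most abundant brain-only partner of 10 kb or more, 35 short rings were lower and 23 higher, with a median ratio of 0.836. In both comparisons, taking the most abundant partner lowers the ratio wherever a ring has several.

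The extremes show both situations. The ring chr7:81549422-81555384 stood at a level of 0.553, and its partner chr7:81543547-81555384, also listed in heart, kidney and spleen, had 94.2 in the authors' deposited brain table. The ring chr2:92051817-92061069 had 2.75 beside 105.7 for chr2:92044394-92061069, which all 5 organs listed, in the authors' deposited table. The opposite was seen for the chromosome 2 pair with starts 13 bases apart. Its partner chr2:139752453-139793499, the ring that kidney lists too, had 1.53 in brain and 1.44 in kidney in the authors' deposited tables, and the ratio of the ring at 27.9 to it was 18.2. The ring chr18:65784631-65789703 had 27.0 in the authors' deposited table, and its partner chr18:65771821-65789703 had 6.88 in brain and was listed in heart at 3.30. On chromosome 15, chr15:73263608-73266593 had 12.8 beside 8.81 for chr15:73264193-73266593, which heart lists too, at 1.30, in the authors' deposited tables. Also there, chr15:79420158-79421746 had 10.9 and shared its end with chr15:79421198-79421746, which stood at 26.2 in brain and was in all 4 other tables in the authors' deposited tables. Counts were scaled separately by organ, so the size of a level is not compared from one organ to another. In the locus whose ring chr4:9635901-9639347 all 5 organs listed, the brain-only ring chr4:9630773-9639347 had 7.59 beside 67.3 for that ring in the authors' deposited table.

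**Figure D3:**
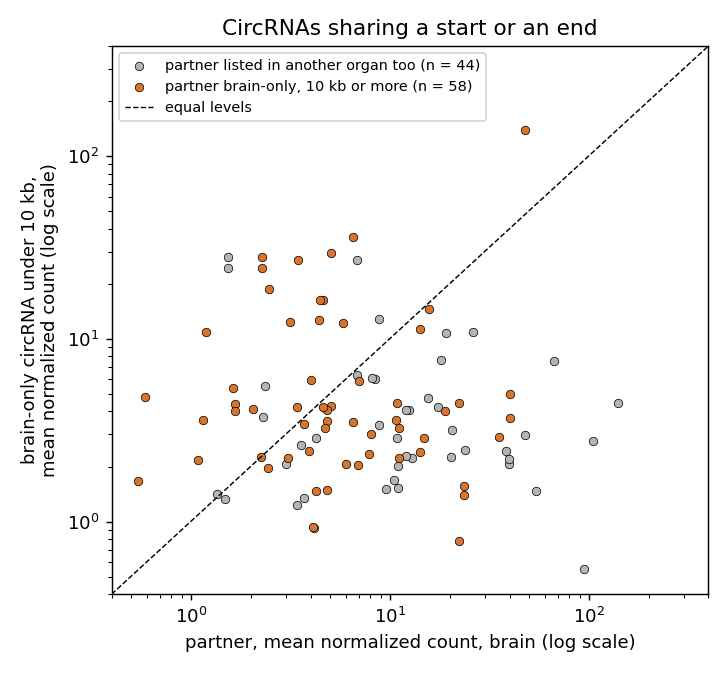
Mean normalized count of brain-only circRNAs under 10 kb (y axis, log scale) against that of their most abundant brain partner with the same start or end (x axis, log scale), 1 point per circRNA, for 44 with a partner listed in another organ too (grey) and 58 with a brain-only partner of 10 kb or more (orange). Below the dashed line of equal levels lie 37 of the 44 grey points and 35 of the 58 orange points.

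The main question of the series was whether circRNAs differ between the genotypes. None of the 680 passed an adjusted p of 0.05 in the authors' DESeq2 test, where the background over the whole brain table was 0% of 1853 tested, and the lowest adjusted p among the 680 was 0.913. At an unadjusted p below 0.05 there were 9 (1.32%), against a background of 2.05% of the brain table. All 9 were negative, against a background of 1.40% negative, and none was positive, against 0.648% of the brain table. The members' share was thus not above that of the table. The median log2 fold change was -0.31, with quartiles of -1.22 and 0.49, against a median of -0.14 over the authors' deposited brain table.

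The smallest p belonged to chr2:158224424-158225083, with a mean of 8.15 and a log2 fold change of -6.25 (SE 1.90, 95% interval -9.96 to -2.53). By the authors' DESeq2 test in their deposited table its p was 0.000985 and its adjusted p 0.913. Next were chr4:126816857-126819816 at -5.61 (SE 2.12, mean 5.58) and chr4:48636840-48639045 at -5.17 (SE 2.01, mean 4.09) in the authors' deposited table. They were followed by chr19:4834752-4844037 at -4.76 (SE 1.99, mean 2.97) and chr18:78038727-78040584 at -4.92 (SE 2.08, mean 3.56) in the authors' deposited table. These 5, and 7 of the 9 in all, lay on a line on which the absolute log2 fold change exceeds log2 of the mean by 3.09 to 3.22. On that line the size of the fold change is tied to the mean, so it is no measure of how strongly a circRNA differs. The other 2 were chr17:26958517-26962105 at -4.63 (SE 2.13, mean 8.76) and chr4:142137768-142138655 at -3.06 (SE 1.46, 95% interval -5.91 to -0.20, mean 20.5) in the authors' deposited table. The last of these, rank 22 of the 680 in level, was the most abundant of the 9.

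Positive estimates were smaller in size. The first by p was chr9:21480751-21486814 at 3.52 (SE 2.05, 95% interval -0.49 to 7.53, mean 3.19) in the authors' deposited table. After it came chr8:125122992-125123323 at 3.19 (SE 1.96) and chr14:58111350-58115916 at 3.26 (SE 2.14), both with intervals that include 0, in the authors' deposited table. The next were chr19:60647299-60653703 at 2.71 (SE 2.06) and chr15:89130461-89137464 at 2.71 (SE 2.14) in the authors' deposited table. Neighbours of the last one differed from it in sign. Within the same 27803 bases of chromosome 15, chr15:89126363-89127662 had -4.84 (SE 2.07, mean 3.25) and chr15:89152706-89154165 had -0.93 (SE 1.38, mean 20.9) in the authors' deposited table. The intervals of chr15:89130461-89137464 and chr15:89152706-89154165 include 0, and the estimate of -4.84 lies on the line where size is tied to the mean. No local difference is read from these signs.

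**Figure D4:**
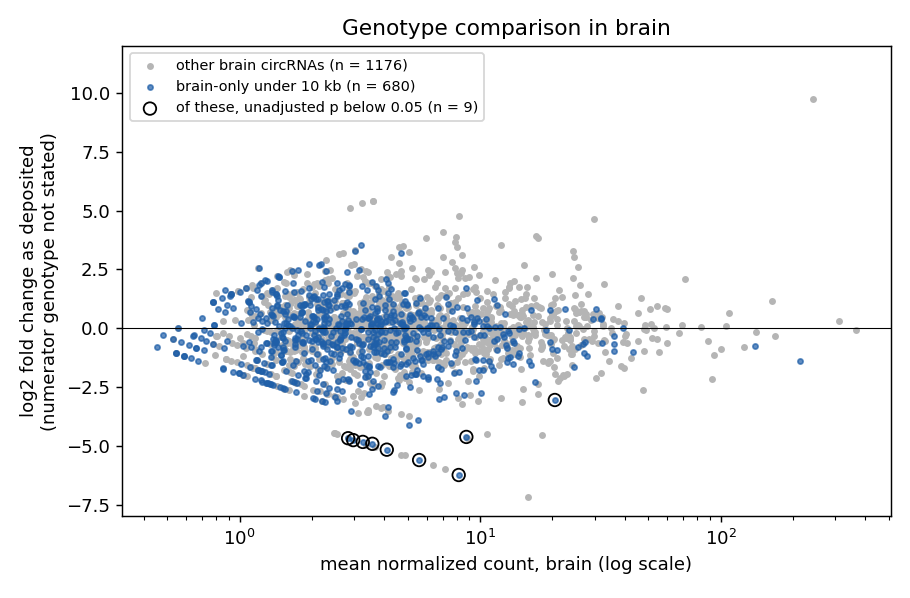
Log2 fold change between the genotypes as deposited (y axis) against the mean normalized count in brain (x axis, log scale) for 680 brain-only circRNAs under 10 kb (blue) and 1176 other brain circRNAs (grey), with the 9 blue ones at an unadjusted p below 0.05 circled. All 9 lie below 0, 7 of them on a straight lower edge, and the grey point at the upper right, at 9.73, is a circRNA that all 5 organs listed.

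Among the 9 of small p, chr4:48636840-48639045 and chr19:4834752-4844037 share a start or an end with other brain rings, whose estimates were smaller in size. Both were picked for a small p and lie on the line where size is tied to the mean, so this contrast is no independent result. Beside chr4:48636840-48639045 at -5.17, the more abundant ring chr4:48636840-48650418 (mean 12.5) had -0.54 (SE 1.41) in the authors' deposited table. Beside chr19:4834752-4844037 at -4.76, the ring with the same end, chr19:4842426-4844037 (mean 47.8), had -0.97 (SE 1.65) in the authors' deposited table. The ring with the same start, chr19:4834752-4835595 (mean 37.5), had 0.93 (SE 1.26), and chr19:4834752-4838070 (mean 2.14) had 1.81 (SE 2.12) in the authors' deposited table. The difference between such rings was not tested, because the rings come from the same libraries and their errors are not independent. The other 7 of the 9 had no partner with the same start or end in brain.

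For abundant short brain-only rings the intervals stayed wide. The leader chr5:117638778-117643704 was estimated at -1.40 log2 units (SE 1.60, 95% interval -4.54 to 1.74) in the authors' deposited table. The next, chr10:89905330-89913004, had -0.75 (-3.77 to 2.27), and the ring with which it shares its end had -2.64 (-5.45 to 0.16) in the authors' deposited table. Of the leading 10, 7 were negative and 3 positive, from -1.40 to 0.44, and every interval included 0 in the authors' deposited table. The closest estimate was that of chr16:33287225-33288553, at -1.42 (SE 1.17, 95% interval -3.71 to 0.88, mean 16.0) in the authors' deposited table. The median SE was 1.99, the median reach of an interval to either side was 3.90 on the log2 scale, and for none of the 680 did the whole interval lie within a 2-fold change either way. A difference of the size of several fold was therefore not detectable for most of them. On chromosome X, which carries Ftsj1, lay 13 of the 680, 7 positive and 6 negative, with a median log2 fold change of 0.29 and none at an unadjusted p below 0.05 in the authors' deposited table. The most abundant of these was chrX:142492644-142499144 at a mean of 6.92 and an estimate of -0.81 (SE 1.92), and the next was chrX:102639537-102649225 at 4.97 and -0.48 (SE 1.61), in the authors' deposited table.

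The signs leaned to the negative side, with the smallest positive share among the most abundant of these circRNAs and no steady trend with level below them. Of the 680, 273 were positive (40.1%) and 407 negative, against 45.0% positive over the authors' deposited brain table. Divided into 4 groups of 170 by level, 41.2%, 47.1%, 40.6% and 31.8% were positive from the lowest to the highest group, and their median estimates were -0.42, -0.05, -0.32 and -0.55 in the authors' deposited table. Brain-only circRNAs of 10 kb or more leaned the same way, with 37.5% positive and a median of -0.38 in the authors' deposited table. Over the level ranges of the same 4 groups, 45.9%, 40%, 39.6% and 23.8% of them were positive. The smallest share in the highest range was thus found for the long ones too. Brain circRNAs under 10 kb that another organ listed too leaned the opposite way, with 58.3% positive and a median of 0.19 in the authors' deposited table. Their positive share varied with level: over the level ranges of the same 4 groups it was 27.6% (8 of 29), 62.1%, 58.4% and 60.3% from the lowest to the highest. Those of 10 kb or more that another organ listed too had 45.1% positive and a median of -0.10 in the authors' deposited table. In both span classes the positive share was thus higher among circRNAs listed elsewhere than among brain-only ones. All brain circRNAs listed elsewhere, of any span, had 53.6% positive and a median of 0.08 in the authors' deposited table. Why the sign goes with the listing was not tested.

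Within the brain circRNAs listed elsewhere, the sign differed by organ. Of 225 that spleen listed too, 71.6% were positive in brain, with a median of 0.70, and 9 of the 12 positive brain circRNAs at an unadjusted p below 0.05 were among them in the authors' deposited table. Those listed by brain and spleen only (21) had a median of 0.89, by brain and liver only (77) 0.15, by brain and heart only (69) -0.14 and by brain and kidney only (139) -0.47 in the authors' deposited table. The sets shared with heart only and with kidney only had 36.2% and 38.8% positive in the authors' deposited table, no more than the 40.1% of the short brain-only circRNAs. The leading spleen circRNA, chr11:11650205-11657904, had a mean of 243.2, an estimate of 9.73 (SE 2.21) and an empty p-value field in the authors' deposited brain table. Brain circRNAs listed elsewhere but not in spleen (530) had 244 positive and a median of -0.08 in the authors' deposited table. All these circRNAs were measured in the same 6 brain libraries and normalized together. The part of spleen-listed circRNAs in the negative lean of the brain-only ones was not tested, and no test set the lean against the variation among mice.

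**Figure D5:**
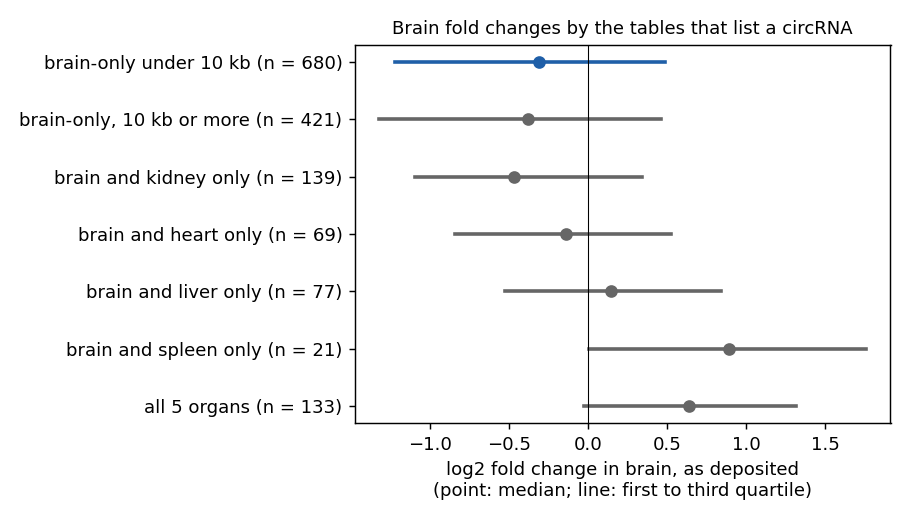
Log2 fold change between the genotypes in brain as deposited (x axis; points are medians, lines run from the lower to the upper quartile) for sets of brain circRNAs by the tables that list them (y axis, with the number of circRNAs). Brain-only circRNAs under 10 kb (blue) have a median of -0.31, and the medians of those shared with spleen alone and with all organs, 0.89 and 0.64, lie on the other side of 0.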

How the data were processed

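The files are the authors' own comparison tables, 1 per organ, made from 60 samples (30 libraries of 6 mice and 5 organs, each sequenced in 2 batches). BWA (version 0.7.17-r1188), DESeq2 and the build GRCm39 appear in the submitters' processing notes without their roles. The sources used here do not give the circRNA caller, the low-expression limit, the formula or how batches were treated, and if repeat runs entered as separate samples, the errors would be too small. Per the file headers, each entry holds a mean abundance signal (baseMean, DESeq2's name for the mean of normalized counts), a log2 fold change with its SE, a test score (the Wald statistic) and p-values with and without adjustment. In brain the deposited score, p-value and adjusted p could be recomputed from the other columns within 1e-06. All 680 circRNAs described had a p-value. Depth is unknown, as no values per library were analysed here.

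Membership, loci, shared ends and summaries were computed with Python 3.11.15, pandas 2.3.3 and NumPy 2.4.6, and the locus and adjustment steps were checked on simulated data. The annotation at hand is for GRCm38, and only 11 of 680 circRNAs had both ends at exon boundaries of 1 of its genes, so host genes, 15 lists of host genes, splice signals and sequences were not analysed here. CircRNAs were named by level, p, span, locus, shared ends and chromosome X, and items outside that rule were picked after their values were seen. The members, the rule and the lists were chosen with earlier results of these data known. The line of extreme fold changes was set at an absolute log2 fold change more than 2 above log2 of the mean. Alternatives were a mean of at least 5 or 10, a span limit of 5 or 20 kb, ends matched within 5 bases, each other organ's table left out, and leaving out the extreme line.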

Additional observations from a re-analysis of the deposited data

How the results depend on the processing

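The number of brain-only circRNAs under 10 kb was 680 and ran from 478 to 839 over span limits of 5 and 20 kb, ends matched within 5 bases and each of the 4 other tables left out. A minimum mean of 5 or 10 raised the median level to 8.42 or 14.5 by its own construction. The 9 negative circRNAs at an unadjusted p below 0.05 went to 4 with a mean of at least 5 and to 2 without the extreme line. The positive ones went from 0 to 1 at a limit of 20 kb, which adds circRNAs. No adjusted p below 0.1 was found among the 680, also when the p-values were adjusted over the 731 brain circRNAs with a mean of at least 5. The median log2 fold change stayed negative, from -0.55 to -0.26. Settings chosen after seeing the data gave 159 circRNAs without overlap in another organ at a mean of at least 5, where 174 remain in all, and 31.6% and 27.7% positive at a mean of at least 5 and 10. With 1 circRNA per locus 39.9% were positive.

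No paired analysis was possible because values per library were not analysed here, and for the same reason the planned fits without 1 replicate were not run. The alternatives on host genes and splice signals were not run, as no annotation or genome of the tables' build was used. Precision was limited, with 3 mice per genotype, a median level of 2.84 and a median SE of 1.99 log2 units; the leader at 214.8 had an SE of 1.60.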

Other observations

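Most of the 680 lay apart from each other beyond overlapping rings too. No like share was computed for other brain circRNAs, so this is not read as particular to the 680. With a gap of up to 50 kb allowed between them, the 680 circRNAs fell into 620 neighbourhoods, 51 of which held at least 2 and none of which held 4 or more. In those 51 lay 111 circRNAs (16.3%). On chromosome 19, 3 circRNAs between 7003660 and 7083367 did not overlap and were all negative in the authors' deposited table, with log2 fold changes from -4.68 to -1.33. Every other neighbourhood that held 3 of these circRNAs had both signs, and 407 of the 680 were negative. On chromosome 11, 3 between 20653711 and 20677639 ran from -3.01 to 0.57 in the authors' deposited table.

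Some entries could not be told apart by their values. Of the brain circRNAs, 69 had the same mean (to 9 decimals) and log2 fold change (to 8 decimals) as another one, in sets of up to 5, and 34 of the 680 were among them. Their means in the authors' deposited table reached 3.58, with a median of 1.19 for the 34. Apart from the line of extreme fold changes, 67 of the 680 lay in a narrower band, where log2 of the mean was exceeded by up to 1.98, 47 of them negative and 20 positive, at means of 0.455 to 5.05 in the authors' deposited table. None of these 67 had an unadjusted p below 0.05.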
